A study of Mus musculus with 6 samples.

Results

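The 9 genes described here encode transcription factors that set and hold macrophage identity: Spi1 (the protein PU.1), Cebpa, Cebpb, Cebpd, Maf, Pparg, Zeb2, Mitf and Runx1. They were chosen by symbol, and all 9 were found among the 21965 genes of the count table and among the 12305 genes with enough reads to be tested. RNA was measured by polyA-selected sequencing in interstitial macrophages sorted from mouse lung, in a study of trained immunity in the lung before metastasis. Trained immunity is a lasting change in innate cells after a first stimulus, here WGP, which the study's design text describes as a beta-glucan. All mice were C57Bl/6, aged 6 to 8 weeks, and the labels name no modified allele. The PBS group received PBS and the WGP group 1 mg of WGP, both into the peritoneum under a 6-day treatment. Lungs were taken on day 7 in both groups, and the title of every library, PBS or WGP, holds the word Control. Each group has 3 libraries, which the labels number 1 to 3. Neither the number of mice behind each library nor the antibodies that defined the sort are stated, so the p-values below measure only the spread between these libraries.

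PU.1 is an ETS factor that opens myeloid enhancers, and C/EBP alpha, beta and delta are basic leucine zipper factors that bind beside it at many of them. C/EBP alpha is needed to form granulocyte and monocyte progenitors, while C/EBP beta and delta are induced by inflammatory signals. Runx1 acts with its partner Cbfb early in blood development and in the Spi1 gene itself, Zeb2 is a zinc finger repressor that holds the identity of tissue macrophages, and Maf restrains self-renewal. Pparg is a lipid-activated nuclear receptor that GM-CSF induces in alveolar macrophages, where it is needed for their development, and Mitf belongs to the MiT family that drives lysosomal and osteoclast genes.

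Library totals lay between 18254678 and 20346517 counts, and the members were covered by 439 counts (Mitf, WGP replicate 2) to 12689 counts (Zeb2, WGP replicate 1). The summed level of 5 Y-linked genes was 114, 180 and 10.6 CPM (counts scaled to library size by TMM) in PBS replicates 1 to 3. It was 207 to 229 in the WGP libraries. Every PBS library was thus below every WGP library, and PBS replicate 3 stood farthest apart. The Y-linked level therefore ran with the group, and a fit with it as covariate cannot fully separate it from treatment. Defining interstitial macrophage genes were present, with C1qa at 518 ± 56.3 CPM (SD, n = 3) in PBS and 208 ± 105 in WGP. That difference did not pass the test (adjusted p = 0.090) but passed by DESeq2 (0.0095), by limma-voom (0.0055), with no robust estimation (0.013) and without WGP replicate 1 (0.025) or 3 (0.021). The summed level of the 15 interstitial markers was 8191 to 9375 CPM in PBS and 6506 to 7765 in WGP, and 3 of them rose (Fcgr1, Csf1r and Cx3cr1), 4 fell (Mertk, Mrc1, Ms4a7 and Apoe) and 8 did not pass. Mertk, a receptor for dying cells, fell most, by 3.01 ± 0.21 on the log2 scale (adjusted p = 0.00014). The number that fell was 7 by DESeq2, 8 by limma-voom and with no robust estimation, 9 and 7 when WGP replicate 1 or 3 was omitted, and 1 without PBS replicates 1 and 3 together, and Mertk, Ms4a7, Apoe and Cx3cr1 were named after their values were seen. Cx3cr1 was not called without PBS replicate 1 (adjusted p = 0.088), WGP replicate 2 (0.055) or WGP replicate 3 (0.061), nor with no filter on low counts (0.054). The libraries also held genes that define other cells. The sum over 15 alveolar macrophage markers was 4978 to 7541 CPM in PBS and 1272 to 1606 in WGP, and 14 of the 15 fell (8 if PBS replicate 1, PBS replicate 2 or WGP replicate 3 is omitted, 9 with a replicate block). The sum over 10 classical monocyte markers was 5037 to 5798 CPM in PBS and 11419 to 14833 in WGP, and 9 of the 10 rose. The sum over 8 endothelial markers was 336.5 to 372 CPM in PBS and 100 to 126 in WGP, and 7 of the 8 fell (6 if any 1 PBS replicate or WGP replicate 2 is omitted). In such bulk samples, fewer cells of a type and less RNA per cell cannot be told apart. The part of these shifts in the results below was not tested.

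**Figure D1:**
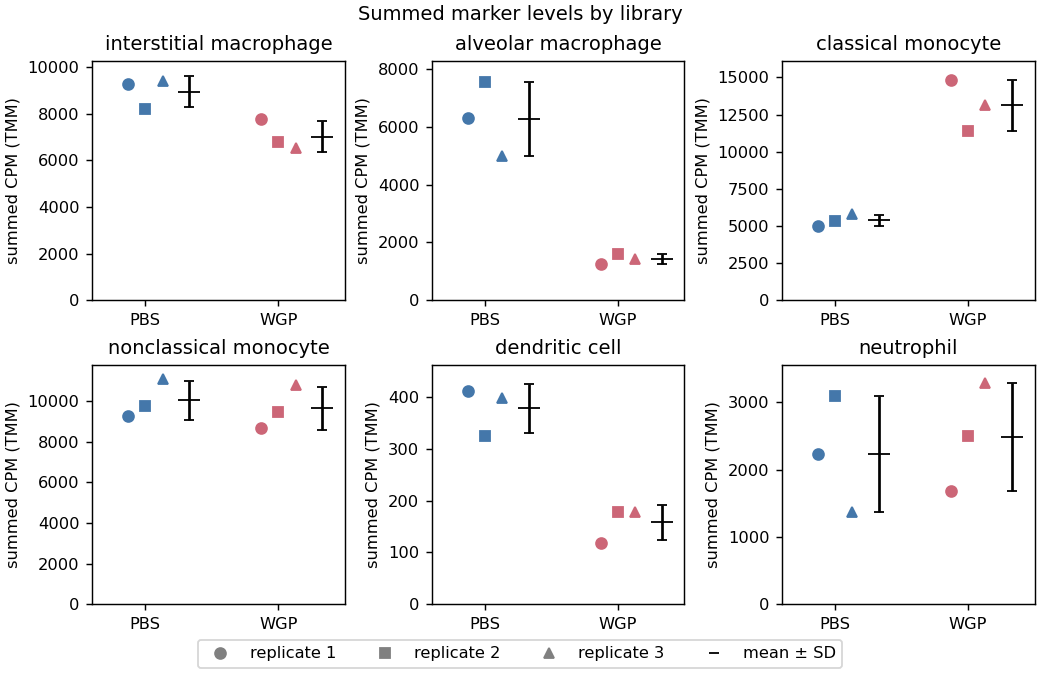
Summed CPM of 6 marker lists in each library (y axis, TMM-scaled CPM), with PBS libraries in blue, WGP libraries in red, marker shapes for the replicate number and bars for mean ± SD (n = 3). The alveolar macrophage sum was 1272 to 1606 CPM in WGP against 4978 to 7541 in PBS, and the classical monocyte sum 11419 to 14833 against 5037 to 5798.

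After WGP, 2 of the 9 factors were higher (Spi1 and Zeb2), 3 were lower (Pparg, Runx1 and Cebpa) and 4 did not pass the test (Cebpb, Cebpd, Maf and Mitf), at an adjusted p under 0.05 (edgeR, quasi-likelihood test, p-values adjusted by Benjamini-Hochberg across the genes tested). Over all 12305 genes, 31.0% passed this test, 15.2% as higher and 15.7% as lower. The members' count of 5 of 9 thus stands beside a background in which nearly 1 gene in 3 was called, and the number called says nothing particular about these factors. Their median log2 fold change was -0.22, against -0.02 over all genes tested. The libraries of the groups did not overlap for 6 of the 9 members, as for 48.1% of all genes. All genes called comprised 1874 higher and 1935 lower, a split that moved to 1236 and 2460 when only library sizes were used for scaling.

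**Figure D2:**
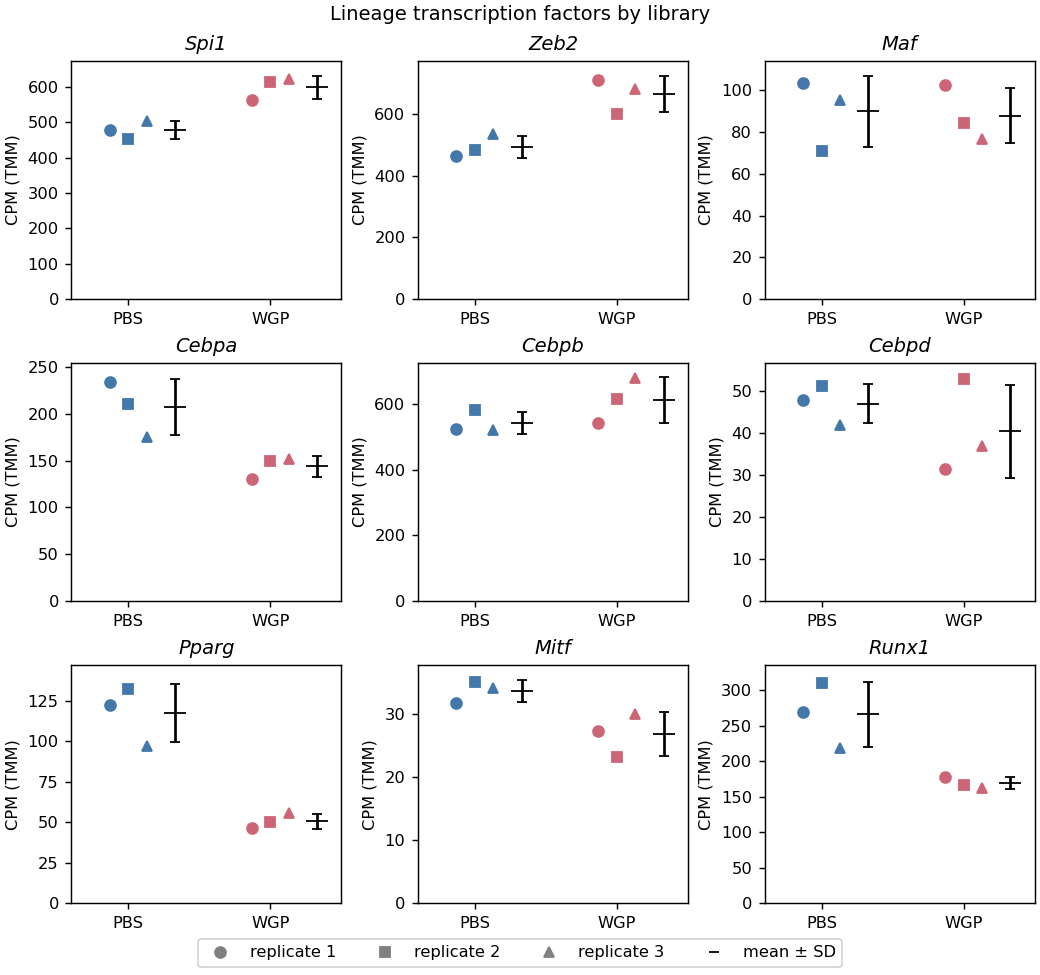
TMM-scaled CPM of the 9 factors in each library (y axes start at 0), PBS in blue and WGP in red, with marker shapes for the replicate number and bars for mean ± SD (n = 3). WGP libraries all lie above PBS libraries for Spi1 and Zeb2, all below for Cebpa, Pparg, Runx1 and Mitf, and overlap with them for Cebpb, Cebpd and Maf.

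Spi1 (ENSMUSG00000002111, GRCm38 chr2:91082390-91115756, plus strand) was at 479, 453 and 504 CPM in PBS replicates 1 to 3 and at 562, 613 and 623 CPM in the WGP replicates. Every WGP library was above every PBS library, and each group was tight. The mean rose 1.25-fold, from 479 ± 25.6 to 599 ± 32.7 CPM (SD, n = 3), which is 0.32 ± 0.07 (SE) in log2 units (adjusted p = 0.0069). Zeb2 (ENSMUSG00000026872, chr2:44983632-45117395, minus strand) was at 465, 483 and 536 CPM in PBS and at 712, 601 and 683 CPM in WGP. Again no WGP library reached down to the PBS range, although WGP replicate 2 lay nearest to it. Its mean rose 1.35-fold, from 495 ± 36.7 to 665 ± 57.8 CPM, or 0.43 ± 0.09 in log2 units (adjusted p = 0.0035). These rises are small next to those of the classical monocyte genes Ccr2, a chemokine receptor, and Ly6c2, a surface antigen, whose log2 fold changes were 2.06 ± 0.13 (adjusted p = 1.8e-05) and 1.76 ± 0.22 (adjusted p = 0.0024).

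Pparg (ENSMUSG00000000440, chr6:115360951-115490399, plus strand) changed most of the 9 on the log2 scale. It was at 122.5, 133 and 97.5 CPM in PBS and at 46.3, 50.1 and 55.6 CPM in WGP. The highest WGP library was far below the lowest PBS library, which was replicate 3. The mean went from 118 ± 18.1 to 50.7 ± 4.70 CPM, a fold of 0.431, which in log2 units is -1.21 ± 0.12 (adjusted p = 8.5e-05). Runx1 (ENSMUSG00000022952, chr16:92601466-92826149, minus strand) was at 270, 310 and 219 CPM in PBS and at 178.5, 167 and 163 CPM in WGP. The PBS libraries were spread and the WGP libraries close together, without overlap. Its mean fell by 0.65 ± 0.11 on the log2 scale, from 266 ± 45.5 to 169.5 ± 8.08 CPM (adjusted p = 0.0023). Cebpa (ENSMUSG00000034957, chr7:35119293-35121928, plus strand) was at 234, 211 and 175.5 CPM in PBS and at 130, 149 and 151 CPM in WGP. The lowest PBS library, replicate 3, was nearest to the WGP libraries but still above them. The mean fell by 0.53 ± 0.11 on the log2 scale, from 207 ± 29.7 to 144 ± 11.7 CPM (adjusted p = 0.0045). Within the PBS group, Pparg and Runx1 were highest in replicate 2 and lowest in replicate 3, whereas Cebpa was highest in replicate 1. The alveolar macrophage sum took the order of Pparg and Runx1 (6291, 7541 and 4978 CPM in replicates 1 to 3). So did the epithelial sum (513, 791 and 380 CPM), the neutrophil sum (2236, 3086 and 1366) and the Y-linked level (114, 180 and 10.6). Other sums, such as the interstitial one (9262, 8191 and 9375 CPM), took other orders. These orders rest on 3 libraries and were compared after the values were seen, and a link was not tested.

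The promoters of these called factors are shown because members that fell and a member that rose can then be compared by sequence. The RefSeq windows (GRCm38.p6) run from 250 bases before to 50 bases after a transcript start, and 14 windows of 6 members were matched (Cebpa, Cebpb, Pparg, Zeb2, Mitf and Runx1). All are written 5′ to 3′ on the gene's strand, and capitals mark matches on either strand to the motifs searched. Runx1 window 1 (chr16:92826025-92826324) and Runx1 window 2 (chr16:92697280-92697579) belong to different starts of the gene, and Pparg window 3 (chr6:115421816-115422115) to the start that lies farthest downstream of its 3 windows. Cebpa window 1 lies at chr7:35119043-35119342 and Zeb2 window 1 at chr2:45117393-45117692.
Runx1 window 1: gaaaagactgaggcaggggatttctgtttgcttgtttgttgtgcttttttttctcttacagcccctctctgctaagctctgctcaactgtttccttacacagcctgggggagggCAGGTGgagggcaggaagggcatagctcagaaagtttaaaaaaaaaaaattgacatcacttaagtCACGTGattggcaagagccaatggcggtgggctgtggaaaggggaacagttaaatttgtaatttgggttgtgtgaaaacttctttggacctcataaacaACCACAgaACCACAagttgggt
Runx1 window 2: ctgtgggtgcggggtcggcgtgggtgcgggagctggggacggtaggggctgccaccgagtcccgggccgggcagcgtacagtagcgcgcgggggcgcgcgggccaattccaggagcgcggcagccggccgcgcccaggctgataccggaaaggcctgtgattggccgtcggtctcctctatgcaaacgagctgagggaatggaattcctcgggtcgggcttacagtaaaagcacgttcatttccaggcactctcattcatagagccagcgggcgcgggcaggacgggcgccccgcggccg
Pparg window 3: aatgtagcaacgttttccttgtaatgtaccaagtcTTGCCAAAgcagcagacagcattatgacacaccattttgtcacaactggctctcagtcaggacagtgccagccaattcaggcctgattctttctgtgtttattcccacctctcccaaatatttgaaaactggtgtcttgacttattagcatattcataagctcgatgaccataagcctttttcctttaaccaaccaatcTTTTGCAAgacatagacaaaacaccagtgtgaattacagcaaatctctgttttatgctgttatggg
Cebpa window 1: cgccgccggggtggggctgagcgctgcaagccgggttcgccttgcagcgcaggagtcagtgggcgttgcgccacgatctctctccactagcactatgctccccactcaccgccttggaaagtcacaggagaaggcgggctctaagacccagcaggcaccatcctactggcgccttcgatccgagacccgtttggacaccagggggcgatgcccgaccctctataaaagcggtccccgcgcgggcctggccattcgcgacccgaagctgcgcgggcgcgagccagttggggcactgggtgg
Zeb2 window 1: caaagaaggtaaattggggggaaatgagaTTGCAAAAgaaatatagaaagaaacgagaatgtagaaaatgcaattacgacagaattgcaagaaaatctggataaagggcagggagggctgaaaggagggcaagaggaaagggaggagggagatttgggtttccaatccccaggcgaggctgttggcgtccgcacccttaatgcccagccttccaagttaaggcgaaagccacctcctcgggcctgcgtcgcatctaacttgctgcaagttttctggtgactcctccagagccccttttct
Runx1 window 1 held the RUNX word TGTGGT, read as ACCACA on the gene's strand, at 28 and 36 bases after the start, the E-box CACGTG at -71 and the ZEB word CACCTG, read as CAGGTG, at -136. Pparg window 3 held the C/EBP word TTGCNNAA as TTGCCAAA at -215 and as TTTTGCAA on the other strand at -16, and Zeb2 window 1 held it as TTGCAAAA at -221. Runx1 window 2, with 69.0% G and C, and Cebpa window 1, with 67.3%, held no match, while Runx1 window 1 had 45.0% and the median of all windows was 52.7%.

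Over the 32851 RefSeq windows of this length, TTGCNNAA was in 10.8%, CACCTG in 20.2%, TGTGGT in 16.8%, CACGTG in 7.15% and the CRE word TGACGTCA in 1.79%. Among the 14 member windows, TTGCNNAA was in 4, CACCTG in 3, TGTGGT in 2, and CACGTG and TGACGTCA in 1 each, the last in a Mitf window. The TTGCNNAA matches lay in Pparg window 3, Zeb2 window 1 and Mitf windows 1 and 2. Zeb2 windows 2 and 3 overlap, so the 14 windows are not independent. The PU.1 word GAGGAAGT (3.20% of all windows), the ETS words ACCGGAAG (2.30%) and CCGGAAGT (3.89%), which can overlap each other, and the stricter C/EBP word TTGCGCAA (0.183%), which is contained in TTGCNNAA, were in no member window. These matches are a description of letters in a window. Counts were made per gene, so which start was used in these cells was not measured.

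Of the 4 factors that were not called, Mitf came nearest to the threshold. Mitf (ENSMUSG00000035158, chr6:97807052-98021349, plus strand) was at 31.8, 35.1 and 34.2 CPM in PBS and at 27.3, 23.2 and 30.0 CPM in WGP. The groups did not overlap, but WGP replicate 3 was close to PBS replicate 1. The log2 fold change of -0.33 ± 0.12 did not pass the test (adjusted p = 0.066), and it passed under upper quartile scaling (-0.39, adjusted p = 0.031) and with library sizes alone (-0.43, adjusted p = 0.019). Cebpb (ENSMUSG00000056501, chr2:167688915-167690418, plus strand), a gene of a single exon, was at 525, 583 and 523 CPM in PBS and at 542, 615 and 681 CPM in WGP. WGP replicate 1 lay inside the PBS range, and the log2 fold change of 0.17 ± 0.09 did not pass (adjusted p = 0.17).

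Cebpd (ENSMUSG00000071637, chr16:15887286-15891031, plus strand) was at 47.9, 51.3 and 42.0 CPM in PBS and at 31.5, 52.8 and 37.0 CPM in WGP. WGP replicate 2 held the highest value of all 6 libraries, and WGP replicates 1 and 3 the lowest ones. The log2 fold change was -0.22 ± 0.18 (adjusted p = 0.40), and without WGP replicate 2 it was -0.46 ± 0.13 (adjusted p = 0.025), so that this library decides the call. Maf (ENSMUSG00000055435, chr8:115682942-115707794, minus strand) was at 103, 71.0 and 95.5 CPM in PBS and at 102.5, 84.4 and 76.8 CPM in WGP. The ranges of the groups covered nearly the same values, and PBS replicate 2 was the lowest library. The log2 fold change of -0.03 ± 0.16 (adjusted p = 0.89) changed sign with the library left out, for example to 0.07 without PBS replicate 1.

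Annotated exons of 6 members overlap exons of a gene on the opposite strand, and whether counting used strand is not given in the sources used here, so reads from such pairs cannot be told apart. The overlap covers 20.7% of the exon bases of Cebpb (Tmem189) and 15.0% of those of Cebpd (Spidr). Tmem189 differed by -0.15 ± 0.09 on the log2 scale (adjusted p = 0.23), and Spidr rose by 0.39 ± 0.12 (adjusted p = 0.032). For Maf (Gm15655), Zeb2 (Zeb2os), Cebpa (Gm45091) and Runx1 (Gm26626) the longest overlap with an opposite gene covers 5.34%, 3.27%, 1.93% and 0.881% of the exon bases, and these opposite genes were not analysed here.

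Levels of different genes were compared as CPM per kilobase of exon. In PBS the order from high to low was Cebpb (361), Spi1 (178), Cebpa (78.5), Pparg (39.8), Zeb2 (24.8), Runx1 (22.2), Cebpd (12.6), Maf (10.9) and Mitf (5.44). Zeb2 and Runx1 overlapped between libraries, as did Cebpd and Maf, and the other neighbours in the order did not. Cebpb lay above 99.2% of all tested genes on this scale and Mitf above 50.7%. In WGP, Cebpb (407), Spi1 (222) and Cebpa (54.5) kept their places, Zeb2 (33.4) stood above Pparg (17.2), and Runx1 (14.1), Cebpd (10.8), Maf (10.7) and Mitf (4.33) followed. Runx1 and Cebpd overlapped there, as did Cebpd and Maf. The share of tested genes below Pparg went from 90.5% to 77.1%, and that below Zeb2 from 84.5% to 87.8%. The places of Zeb2, Pparg and Runx1 depend on the length used, since with the longest coding transcript Zeb2 (54.2) and Pparg (55.3) were nearly level in PBS and Zeb2 (72.9) was above Cebpa (54.7) in WGP.

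Ratios of members within a library do not depend on scaling between libraries, and those given here were tested by an exact two-sided permutation test, whose smallest possible p with 3 against 3 libraries is 0.1. Cebpb exceeded Cebpa, per kilobase, 3.93, 4.84 and 5.22 times in PBS and 7.30, 7.22 and 7.88 times in WGP. The groups did not overlap, and the mean log2 ratio was higher by 0.69 in WGP (exact p = 0.1, adjusted 0.167). Pparg was at 0.233, 0.267 and 0.176 of the Spi1 level in PBS and at 0.0751, 0.0746 and 0.0815 in WGP, without overlap (log2 difference -1.53, exact p = 0.1, adjusted 0.167). The ratio of Zeb2 to Id2, an inhibitor of E proteins that marks dendritic cell fates, was 0.251, 0.264 and 0.273 in PBS and 0.477, 0.354 and 0.465 in WGP (log2 difference 0.71, exact p = 0.1, adjusted 0.167). Cebpd over Cebpb (log2 difference -0.42, exact p = 0.2, adjusted 0.25) overlapped between groups. The adjustment is Benjamini-Hochberg over the 5 ratios computed, and the design could not reach 0.05.

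Relatives of the members were taken as families, each described by its own counts. Of 12 ETS relatives of Spi1, 3 rose, 2 fell and 7 did not pass. Fli1, a factor of megakaryocytes and endothelium, rose from 101.5 to 106 CPM in PBS to 149 to 178 in WGP (log2 fold change 0.63 ± 0.08, adjusted p = 0.00033), and Elf4 (0.39, adjusted p = 0.0035) and Elf1 (0.38, adjusted p = 0.0071) rose less. Spic, the factor of red pulp macrophages, was at 17.5, 10.8 and 17.1 CPM in PBS and at 5.73, 8.24 and 7.61 in WGP and fell by 1.07 ± 0.23 on the log2 scale (adjusted p = 0.0053). Ets1, a lymphoid factor, fell by 0.42 (adjusted p = 0.026) and missed the threshold without PBS replicate 1 (adjusted p = 0.056) or 2 (0.078) and when the summed Y-linked level entered the fit as covariate (0.071).

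Of 11 genes in a list of C/EBP relatives, antagonists and other factors, 1 rose, 2 fell and 8 did not pass. The list's median log2 fold change of -0.62 is the value of Tef. Cebpe (0.72, adjusted p = 0.13), Cebpg (-0.07, adjusted p = 0.54) and Cebpz (0.18, adjusted p = 0.18), named after their values were seen, did not pass. Nfil3, a leucine zipper repressor, rose from 317 to 384 CPM in PBS to 438 to 470 in WGP (log2 fold change 0.42 ± 0.08, adjusted p = 0.0036). Ddit3, the stress-induced partner that keeps C/EBP factors from their sites, fell by 0.73 ± 0.17 (adjusted p = 0.0081), and Tef, a circadian factor, fell by 0.62 ± 0.13 (adjusted p = 0.0047). Dbp, another circadian factor, did not pass (-0.84, adjusted p = 0.084). Without WGP replicate 2 the count was 2 higher and 4 lower.

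Of the 6 tested relatives and partners of Maf, Maff, a small Maf protein that lacks an activation domain, fell by 1.60 ± 0.22 (adjusted p = 0.00080), from 28.8 to 43.2 CPM in PBS to 8.42 to 14.9 in WGP. Bach1, a repressor that pairs with small Maf proteins, rose by 0.37 ± 0.07 (adjusted p = 0.0030). Bach2, a relative of Bach1 known from lymphocytes, did not pass (-0.32, adjusted p = 0.24).

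Of the 8 tested relatives and partners of Pparg, 2 rose, 2 fell and 4 did not pass. Rxra, the receptor that Pparg pairs with to bind DNA, fell by 0.51 ± 0.09 (adjusted p = 0.0023), from 158 to 205 CPM in PBS to 128 to 132 in WGP. Nr1h3, the oxysterol receptor LXR alpha, fell by 1.14 ± 0.20 (adjusted p = 0.0029). Ppard, the PPAR of broad expression, rose from 36.4 to 46.6 CPM in PBS to 66.2 to 78.2 in WGP (0.75 ± 0.11, adjusted p = 0.00076). Ppard stood at 0.117, 0.138 and 0.185 of the Pparg level per kilobase in PBS and at 0.562, 0.613 and 0.506 in WGP, a ratio chosen after the values were seen and not tested.

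In the MiT family and its partners, Tfec, the member restricted mainly to myeloid cells, fell by 2.24 ± 0.20 (adjusted p = 7e-05). It was at 50.6, 52.1 and 33.6 CPM in PBS and at 10.1, 11.2 and 7.66 in WGP, so every WGP library was far below every PBS library. Tfe3 rose by 0.48 ± 0.07 (adjusted p = 0.00050), with PBS libraries at 113.5 to 115 CPM and WGP libraries at 153 to 166. Tfeb, which drives lysosome formation, rose by 0.50 ± 0.11 (adjusted p = 0.0051). The 3 other genes of the list did not pass, among them Fnip2 (0.19, adjusted p = 0.30). With Mitf itself not called, the 4 MiT members had 2 rises and 1 fall.

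Of the 4 tested genes of the Runx list, Runx3, known for its part in lymphoid and dendritic cells, rose by 0.57 ± 0.12 (adjusted p = 0.0081), from 116 to 127.5 CPM in PBS to 152 to 220 in WGP. Without PBS replicate 1 its adjusted p was 0.050, which no longer passed. The partner Cbfb (-0.05, adjusted p = 0.76), Runx2 (0.06, adjusted p = 0.67) and the corepressor Cbfa2t3 (0.20, adjusted p = 0.14) did not pass. Runx3 was at 1.03, 0.947 and 1.40 of the Runx1 level per kilobase in PBS and at 2.97, 2.18 and 2.53 in WGP, a ratio that was likewise chosen after the values were seen. On this scale the PBS libraries had similar levels of both genes, and in all WGP libraries Runx3 exceeded Runx1. That order depends on the length used, which for Runx1 was 12025 bases of exon against 5861 in its longest coding transcript. In CPM without a length, Runx3 was below Runx1 in PBS (means 122 and 266) and in WGP replicate 2 (152 and 167).

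Of 9 Zeb2 relatives and E protein regulators, Id1 fell by 1.24 ± 0.24 (adjusted p = 0.0035), from 13.8 to 24.1 CPM in PBS to 5.91 to 9.51 in WGP. Id2 fell by 0.28 ± 0.08 (adjusted p = 0.019), but its adjusted p was 0.054 and 0.052 without PBS replicates 1 and 3, 0.065 and 0.083 without WGP replicates 1 and 3, and 0.10 with the Y-linked covariate. Tcf4, the E protein of plasmacytoid dendritic cells, rose by 0.40 ± 0.10 (adjusted p = 0.011) and was not called without PBS replicate 1 (adjusted p = 0.061). The corepressor Ctbp2 did not pass (-0.21, adjusted p = 0.083), but passed under upper quartile scaling (0.040), with library sizes alone (0.022) and without PBS replicate 2 (0.045).

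Of 23 tested factors of other myeloid fates, 4 rose and 8 fell. Those that rose were Nfe2 (0.69, adjusted p = 0.00014), Lmo2 (0.71, adjusted p = 0.00034), Irf8, the factor of monocytes and dendritic cells (1.03 ± 0.14, adjusted p = 0.0014), and Ikzf1 (0.25, adjusted p = 0.032), of which Lmo2, Irf8 and Ikzf1 were named after their values were seen. The Ikzf1 call was lost under 7 alternatives, with an adjusted p of 0.10 under upper quartile scaling, 0.18 with library sizes alone, 0.090 and 0.12 without PBS replicates 1 and 2 in turn, and 0.052, 0.068 and 0.092 without each WGP replicate. Among those that fell were Bhlhe40 (-0.93 ± 0.09, adjusted p = 7.6e-05) and Bhlhe41 (-3.29 ± 0.37, adjusted p = 0.00035), a pair known from alveolar macrophages, and the immediate early factor Egr2 (-3.05 ± 0.22, adjusted p = 0.00021). Irf8 was at 172.5, 139 and 192 CPM in PBS and at 290, 394 and 344 in WGP, so its rise was larger than those of Spi1 and Zeb2 on the log2 scale. That difference in size was not tested. Without PBS replicates 1 and 3 together, the number that fell was 4, and with the Y-linked covariate it was 5.

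**Figure D3:**
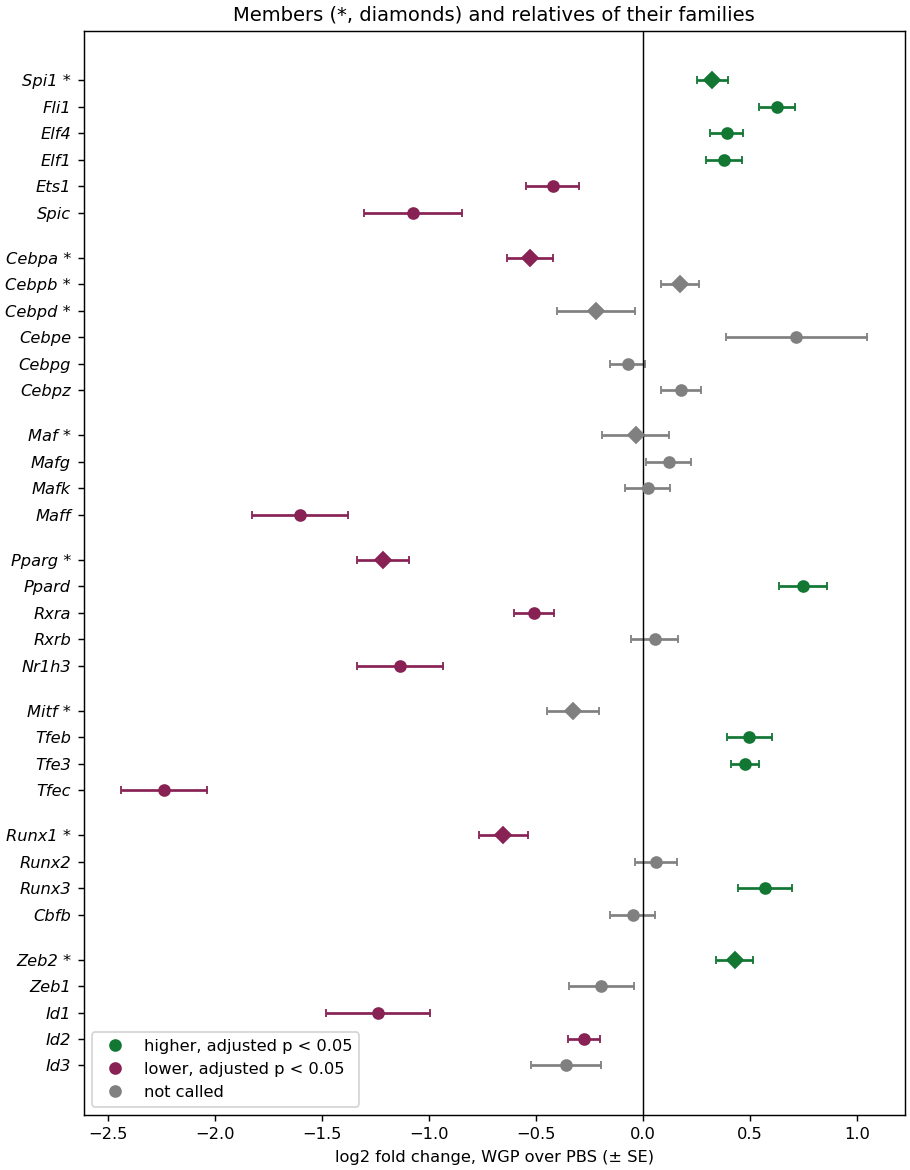
Log2 fold change, WGP over PBS (x axis, points with ± SE from the edgeR fit), of the 9 members (diamonds, starred) and of some relatives in each family, coloured green for higher, purple for lower and grey for not called at an adjusted p of 0.05. Pparg (-1.21) lies opposite to Ppard (0.75), Runx1 (-0.65) opposite to Runx3 (0.57), and Tfec (-2.24) opposite to Tfeb (0.50) and Tfe3 (0.48).

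Genes known as targets of each factor were taken from textbook knowledge, with earlier results of these data known, so their counts are a description. Binding was not measured here. Of 20 genes known as PU.1 targets, 11 rose, 2 fell and 7 did not pass, with a median log2 fold change of 0.36 against -0.02 over all genes tested. They included the scavenger receptor Msr1 (1.04 ± 0.10, adjusted p = 7.6e-05), the Fc receptor Fcgr1 (1.04 ± 0.11, adjusted p = 0.00012) and the NADPH oxidase subunits Ncf4 (0.75 ± 0.08, adjusted p = 0.00013) and Cybb (0.65 ± 0.07, adjusted p = 0.00014). Cybb lay between 1612 and 1871 CPM in PBS and between 2678 and 2768 in WGP. Csf1r, the receptor for macrophage colony-stimulating factor, rose by 0.33 ± 0.08 (adjusted p = 0.0071), close to the change of Spi1. The 2 that fell, of which Tlr4 was named after its value was seen, were the endotoxin receptor Tlr4 (-0.69) and the mannose receptor Mrc1 (-2.08 ± 0.33, adjusted p = 0.010). The classical monocyte sum given above was likewise higher in WGP. Fcgr1, Csf1r, Mrc1 and Adgre1, of which Adgre1 did not pass (-0.07, adjusted p = 0.57), are also in the interstitial marker list.

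Of 18 tested genes known as C/EBP targets, 2 rose, 4 fell and 12 did not pass, with a median of -0.35. Lysozyme, Lyz2, rose from 10782 to 11414 CPM in PBS to 15892 to 16516 in WGP (0.55 ± 0.07, adjusted p = 0.00020), and the granule protease Prtn3 rose from 0.950 to 1.82 CPM to 6.13 to 12.0 (2.63 ± 0.36, adjusted p = 0.00044). The cytokine Tnf fell by 1.43 ± 0.12 (adjusted p = 3.7e-05) and the chemokine Ccl3 by 1.17 ± 0.18 (adjusted p = 0.0031). Cxcl1 fell by 1.06 (adjusted p = 0.014), a call lost without PBS replicate 3 (0.075) or WGP replicate 3 (0.054) and with the Y-linked covariate (0.12). Arginase, Arg1, was low and spread in PBS, at 9.62, 1.87 and 6.46 CPM, and was at 0.393, 0.528 and 0.328 in WGP. It fell by 3.82 ± 0.62 (adjusted p = 0.0013) and was not called by limma-voom (adjusted p = 0.064).

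Of 16 tested genes known as Pparg targets, none rose, 12 fell and 4 did not pass, with a median of -1.55. Over all genes tested, 15.7% fell. The number of these targets that fell was 9 without PBS replicate 2 or WGP replicate 3, 10 without PBS replicate 1 and 11 without PBS replicate 3. It was 13 without WGP replicate 1 or 2 and 14 by DESeq2. The lipid chaperones Fabp4 and Fabp5 fell by 1.82 ± 0.11 (adjusted p = 9e-06) and 1.23 ± 0.14 (adjusted p = 0.00013). The lipid scavenger receptor Cd36 was at 344, 320 and 341.5 CPM in PBS and at 174, 149 and 146.5 in WGP and fell by 1.10 ± 0.08 (adjusted p = 1.8e-05). For each of these 3 genes the PBS and WGP libraries were well apart. The list shares Fabp4, Car4, Fabp1 and Cidec with the alveolar macrophage markers, whose sum fell in the same libraries, and the part of that shift in these changes was not tested.

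Of 17 tested genes known as MITF or TFEB targets, 3 rose, 7 fell and 7 did not pass, with a median of -0.21. Tartrate-resistant acid phosphatase, Acp5, was at 104, 106 and 88.0 CPM in PBS and at 35.8, 37.6 and 36.6 in WGP and fell by 1.44 ± 0.09 (adjusted p = 1.1e-05). The autophagy receptor Sqstm1 fell by 0.59 ± 0.07 (adjusted p = 0.00023) and the lysosomal protease Ctsd by 1.63 ± 0.16 (adjusted p = 0.00033). Ostm1 (0.45 ± 0.08, adjusted p = 0.0017), the proton pump subunit Atp6v1a (0.46 ± 0.08, adjusted p = 0.0018) and the lysosomal membrane protein Lamp1 (0.26 ± 0.06, adjusted p = 0.012) rose, the last 2 named after their values were seen. With library sizes alone Lamp1 was not called (adjusted p = 0.082). The number called lower was 3 of the 17 with PBS replicate 1, PBS replicate 2 or WGP replicate 3 left out, and also with the Y-linked covariate.

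Of 16 genes tied to Maf in macrophages, 1 rose, 2 fell and 13 did not pass, with a median of -0.84. The list shares C1qa, C1qb, C1qc, Cd163, Mrc1, Folr2 and Lyve1 with the interstitial markers, whose sum was lower in WGP. The part of that shift in this median was not tested. Mrc1 fell from 711.5 to 907 CPM in PBS to 129 to 285 in WGP. The transglutaminase F13a1, which is also in the classical monocyte list, rose by 1.54 ± 0.28 (adjusted p = 0.013), a call lost without PBS replicate 1 (adjusted p = 0.060) or 2 (0.051). The complement receptor C5ar1 fell by 0.90 (adjusted p = 0.019), with an adjusted p of 0.057 when PBS replicate 1 was left out, of 0.060 and 0.063 when WGP replicates 1 and 2 were, and of 0.065 with a replicate block. The complement gene C1qc was at 502, 391 and 506 CPM in PBS and at 268, 168 and 86.6 in WGP and did not pass (-1.42 ± 0.46, adjusted p = 0.083), but passed by DESeq2 (0.0070), by limma-voom (0.0046), with no robust estimation (0.011) and without WGP replicate 1 (0.026) or 3 (0.027). The spread among WGP libraries was wide, and the number of this list called lower was 9 without WGP replicate 1, 5 without WGP replicate 3 and 1 without PBS replicate 1 or WGP replicate 2. It was 6 by DESeq2, 9 by limma-voom, 8 without robust estimation and 1 with a replicate block.

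Of 11 tested genes linked to Runx1 or Zeb2, 2 rose (Csf1r and Spi1, itself a member) and 6 fell, with a median of -1.14. The adhesion molecule Cdh1, a classical target of ZEB repressors, was at 29.5, 31.7 and 26.8 CPM in PBS and at 3.82, 3.06 and 3.67 in WGP and fell by 3.06 ± 0.16 (adjusted p = 7.5e-06). The integrin Itgax fell by 1.53 ± 0.11 (adjusted p = 1.4e-05) and the lectin Cd209a by 1.49 ± 0.11 (adjusted p = 2.4e-05). The epithelial adhesion molecule Epcam fell from 12.3 to 18.2 CPM to 0.0561 to 1.06 (adjusted p = 0.0013). Nr1h3 and Id2, given above, were the remaining ones. In the same libraries the summed level of 10 epithelial markers, Epcam among them, was 380 to 791 CPM in PBS and 16.9 to 81.3 in WGP, and that of 10 dendritic cell markers, Cd209a among them, 326 to 413 and 118 to 178, while Itgax is also an alveolar marker. The part of these cells in the changes of Cdh1, Itgax, Cd209a and Epcam was not tested.

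**Figure D4:**
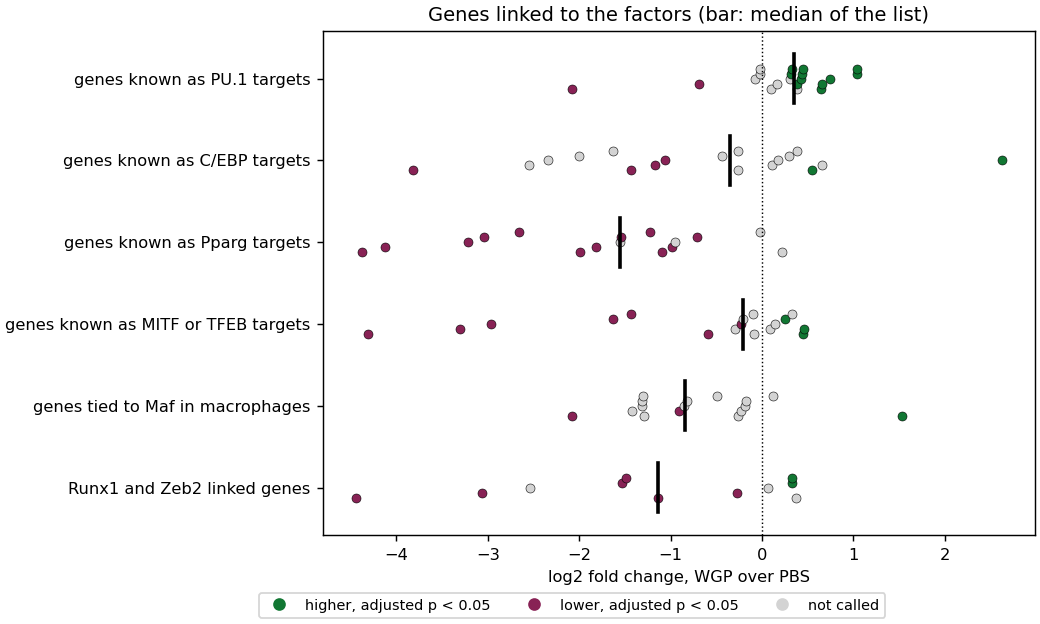
Log2 fold change, WGP over PBS (x axis), of each tested gene in 6 lists linked to the factors (rows), coloured green for higher, purple for lower and grey for not called, with a black bar at the list's median. The median was 0.36 for genes known as PU.1 targets and -1.55 for genes known as Pparg targets.

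The genes nearest to each member in pattern were found among 9313 genes by the root mean square difference of log2 CPM, centred on each gene's mean, over the 6 libraries. For Pparg the nearest gene was Ear2 (difference 0.0231), an eosinophil-type ribonuclease gene of the alveolar marker list, followed by Grap2 (0.0745). For Spi1 they were Crybg1 (0.0137) and Senp1 (0.0216), and for Zeb2 Zfp263 (0.0207) and Pigh (0.0244). For Runx1 they were Ahctf1 (0.0448) and Pde8a (0.0559), and for Cebpa Lancl1 (0.0444) and Zmynd19 (0.0630). The factors that were not called had Ypel3 (0.0316) and Midn (0.0361) nearest to Cebpb, Socs3 (0.0667) and Dctpp1 (0.0739) to Cebpd, Arl16 (0.0543) and Det1 (0.0592) to Maf, and Mrpl51 (0.0417) and Rasa1 (0.0432) to Mitf. Cebpd and Socs3, a feedback inhibitor of cytokine signalling, shared the high value in WGP replicate 2. The points are 6 libraries in 2 groups, so genes with a like group difference come out as near, and the distances are a description.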

How the data were processed

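RNA was sequenced from 6 polyA-selected libraries of sorted lung interstitial macrophages, 3 PBS and 3 WGP, grouped by their titles. The authors deposited whole-number counts per gene. FastQC 0.10.1, HTSeq 0.10.0 and the build GRCm38 (mm10) are named in the submitters' processing notes, and what was used for alignment, annotation and strand is not given in the sources used here. All 9 members and every list were chosen with earlier results of these data known. Symbols, exon lengths and overlaps came from GENCODE M21, which matched 21939 of 21965 identifiers.

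Counts were fitted with edgeR 4.0.16 in R 4.3.3 (filterByExpr, TMM, robust quasi-likelihood test, two-sided, Benjamini-Hochberg over 12305 genes, threshold 0.05). SE values were computed as the absolute log2 fold change over sqrt(F). The fit was tested on simulated counts. Alternatives were other scalings and filters, DESeq2 1.42.0, limma-voom (limma 3.58.1), no robust estimation, a replicate block, a Y-linked covariate and leaving out each library, and leaving out PBS replicates 1 and 3 together was added after seeing the data. No source says that the replicate numbers pair libraries, so they were not used as pairs in the main test. In a check, same-numbered PBS and WGP libraries did not deviate together. Named genes were all members, the 4 genes of each list with the smallest p and further called ones where these were 5 or fewer, Csf1r, Ccr2, Ly6c2 and Id2, and the 2 genes nearest in pattern (mean CPM of at least 5, log2 CPM with prior count 2). Some named genes and 1 of the 5 ratios are not reported here. Totals of 18254678 to 20346517 counts limit the precision of the low genes.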

Additional observations from a re-analysis of the deposited data

How the results depend on the processing

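Spi1, Zeb2, Cebpa, Pparg and Runx1 kept their direction and their call under all 17 alternatives, with log2 fold changes of 0.22 to 0.40, 0.33 to 0.51, -0.67 to -0.43, -1.40 to -1.13 and -0.87 to -0.53. With the replicate block, Pparg was at an adjusted p of 0.0016, and the counts stayed at 2 members higher and 3 lower; deviations of same-numbered libraries had correlations of -0.06, -0.08 and -0.05, and the block changed no member's call. Cebpb was called under none, with 0.07 to 0.26. The members called lower were 4 under upper quartile scaling, with library sizes alone and at an adjusted p under 0.1, through Mitf, and 3 to 4 when 1 library was left out, through Cebpd. With library sizes alone, the median over all genes was -0.12 and 1236 genes were higher. Leaving out 1 library gave 1202 to 1753 genes higher and 1289 to 1964 lower, the lowest without PBS replicate 1, and without PBS replicates 1 and 3 together 993 and 827. Maf changed sign to 0.065 with the Y-linked covariate and to 0.31 without PBS replicates 1 and 3, and ranged from -0.18 to 0.07 when 1 library was left out (0.073 without PBS replicate 1, 0.01 without PBS replicate 3, 0.06 without WGP replicate 3). The cause of these changes was not tested. Without PBS replicates 1 and 3, which leaves 1 PBS library assumed to vary like the others, many named genes lost their call. Among them were Nfil3, Tef, Spic, Bach1, Nr1h3, Mrc1, Atp6v1a, Ms4a7 and Apoe. Runx3, Tcf4, Id2, Arg1, Cxcl1, F13a1, Ets1 and Lamp1 lost theirs as well, while Cbfa2t3 gained a call.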
